A study of Mus musculus with 6 samples.

Results

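The genes described here are 9 genes that mark classical monocytes of the mouse: Vcan, F13a1, Fn1, Lyz2, Hp, Cd14, Clec4e, Plac8 and S100a4. They were chosen by name as known markers and matched through the Entrez identifier of each row. All 9 were found among the 16058 genes of the series. Of these, 8 reached the 1 FPKM in at least 2 libraries that a test required, as did 11616 genes in all, and Vcan did not. FPKM is the number of sequenced fragments scaled to transcript length and to the mapped fragments of the library, so levels of different genes can be set side by side. F13a1 reached 1 FPKM in 3 libraries and the other 7 tested genes in all 6.

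RNA was sequenced from cells sorted from the spleen of C57BL/6 mice 6 to 8 weeks old. The sort separated 3 gates by the surface antigens Ly6c and F4/80, spelled here as in the labels: Ly6chiF4/80lo, Ly6cloF4/80lo and Ly6cloF4/80hi. Each gate was sampled once in the normal state (day 0) and once at day 15 after transplantation of 1000000 GFP+ leukemia cells per mouse without irradiation, the T-ALL state (T cell acute lymphoblastic leukemia). The 6 libraries have 1 library per gate and state, and the labels name no further allele or agent. The labels call the cells macrophage subpopulations and do not say whether the 3 gates of a state came from the same mice, from separate mice or from pooled mice. The p-values below therefore measure only the spread between these sorted fractions.

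Classical monocytes leave the bone marrow, carry high surface Ly6C and the chemokine receptor CCR2, and enter inflamed tissue, where they can become macrophages. The spleen stores monocytes and also holds the F4/80-high red pulp macrophages, which clear aged red cells and recycle their iron. The 9 genes cover several tasks of the monocyte: matrix and clot proteins (Fn1, Vcan, F13a1), secreted or granule proteins (Lyz2, Hp), receptors for microbial products (Cd14, Clec4e) and cytoplasmic proteins (Plac8, S100a4). Several of them are also transcribed in other cells, Lyz2 in macrophages and neutrophils, Hp and Clec4e in neutrophils, and Cd14 in macrophages.

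The promoters of 3 genes that recur in the results are printed, and no level or change was tested against these sequences. The genes are Lyz2, the most abundant of the 9, its near copy Lyz1, whose level ran parallel to it, and Clec4e, which rose in T-ALL. Each line gives the 250 bases before the transcript start in GRCm38.p6, from RefSeq, on the minus strand of the chromosome and written 5′ to 3′ in the direction of transcription. Lyz2 lies at chr10:117282273-117282522, Lyz1 at chr10:117292869-117293118 and Clec4e at chr6:123289872-123290121. Capitals mark matches, on either strand, to TTGCNNAA (bound by C/EBP factors), GAGGAA (the core bound by PU.1) or TGANTCA (AP-1).
Lyz2: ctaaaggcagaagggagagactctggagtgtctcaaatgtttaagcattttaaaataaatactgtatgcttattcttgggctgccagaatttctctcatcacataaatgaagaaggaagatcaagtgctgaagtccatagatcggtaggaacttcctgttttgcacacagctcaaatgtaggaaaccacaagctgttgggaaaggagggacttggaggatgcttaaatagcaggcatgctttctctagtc
Lyz1: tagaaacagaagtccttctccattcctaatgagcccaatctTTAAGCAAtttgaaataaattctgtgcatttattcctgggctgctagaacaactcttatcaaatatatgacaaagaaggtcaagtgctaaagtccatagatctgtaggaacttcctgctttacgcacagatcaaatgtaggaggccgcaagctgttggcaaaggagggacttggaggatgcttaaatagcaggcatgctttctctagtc
Clec4e: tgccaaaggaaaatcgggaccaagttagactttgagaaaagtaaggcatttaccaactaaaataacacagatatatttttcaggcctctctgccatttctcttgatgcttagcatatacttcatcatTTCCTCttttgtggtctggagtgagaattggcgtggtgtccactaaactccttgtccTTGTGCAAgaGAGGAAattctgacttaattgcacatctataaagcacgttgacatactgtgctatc
The Clec4e window held a C/EBP match, TTGTGCAA, that begins 66 bases before the start. It also held PU.1 matches that begin 56 and 123 bases before it, and no match overlapped another. The Lyz2 window held none of the 3 motifs, and the Lyz1 window held 1 C/EBP match, TTAAGCAA, that begins 209 bases before the start. The lysozyme windows were identical in 200 of 248 aligned bases (80.6%) and the coding sequences in 425 of 447 bases (95.1%). Windows of 6 of the 9 genes were used. Of these, 2 held a C/EBP match (Clec4e and Plac8), 3 a PU.1 match (Clec4e, F13a1 and Plac8) and 0 an AP-1 match. A gene was counted if any of its windows held a match, and F13a1 and Plac8 have 2 windows each. The C/EBP match of Plac8 lay in 1 of them. The start of the S100a4 window did not match a GENCODE transcript. The shares that follow are per window and not per gene. Of all 32851 RefSeq windows 9.6% held the C/EBP motif, 23.3% the PU.1 motif and 6.7% the AP-1 motif. A match is a run of letters and no evidence of binding. Windows of Fn1, Hp and Cd14 were not used here.

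The libraries held 6530000 to 8420000 fragments, as recovered from the spacing of low FPKM values, and listed 14225 to 14628 genes each. Ly6c2, which encodes the Ly6C antigen of the sort, stood at 482 FPKM in the normal and 1405 FPKM in the T-ALL Ly6chiF4/80lo library and at 11.8 to 21.4 FPKM in the other 4. Adgre1, which encodes F4/80, stood at 529 and 234 FPKM in the Ly6cloF4/80hi gate and at 47.3 to 86.7 FPKM elsewhere. Both antigens followed the gates. Markers of other cells were present in every gate. The summed level of 15 neutrophil markers was 13600 FPKM in the normal and 45500 FPKM in the T-ALL Ly6chiF4/80lo library, against 138 to 435 FPKM in the Ly6clo gates. The summed level of 10 B cell markers was 1240 to 3550 FPKM and that of 8 plasma cell markers 479 to 14700 FPKM, the latter highest in the T-ALL Ly6chiF4/80lo library. In these bulk samples, fewer cells of a type and less RNA per cell cannot be told apart.

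Between the gates, 6 of the 8 tested genes were higher in Ly6chiF4/80lo than in Ly6cloF4/80hi (F13a1, Lyz2, Hp, Clec4e, Plac8 and S100a4), 1 was lower (Cd14), and Fn1 did not pass. Over all tested genes 5.68% were higher and 7.10% lower in that comparison (limma, Benjamini-Hochberg adjusted p under 0.05). Against Ly6cloF4/80lo, 3 were higher (F13a1, Lyz2 and Hp) and 0 lower, where 2.05% of all genes were higher and 2.68% lower. At an unadjusted p under 0.05 the counts were 5 and 0. Between the Ly6clo gates, 1 gene was higher in Ly6cloF4/80hi (Cd14) and 2 were lower (Hp and S100a4), where 2.66% of all genes were higher and 0.904% lower (3.56% in either direction). The median log2 difference of the 8 genes was 2.45 for Ly6chiF4/80lo against Ly6cloF4/80hi and 1.55 against Ly6cloF4/80lo, where the median of all tested genes was -0.12 and -0.19. The 3 gate comparisons share libraries, so their counts are not independent. Without the normal or the T-ALL Ly6chiF4/80lo library, whose neutrophil markers stand apart, 4 and 5 of the 8 genes were called against Ly6cloF4/80hi, and 2 each against Ly6cloF4/80lo. Against Ly6cloF4/80hi the count was also 4 without the normal Ly6cloF4/80hi library. Against Ly6cloF4/80lo it was 1 without either Ly6cloF4/80lo library, and between the Ly6clo gates it was 0 without the normal Ly6cloF4/80hi library.

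With T-ALL, 2 of the 8 genes rose (Hp and Clec4e) and 0 fell, where 8.20% of all tested genes rose and 3.94% fell. At an unadjusted p under 0.05 the counts were also 2 and 0. The median log2 difference of the 8 genes was 0.06, and that of all tested genes -0.03. Because gate is a block, leaving out either library of a gate takes that whole gate out of this comparison and gives the same log2 difference. Both calls stood without either Ly6chiF4/80lo library. Without the normal or the T-ALL Ly6cloF4/80hi library the count was 0, and without either Ly6cloF4/80lo library it was 1.

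**Figure D1:**
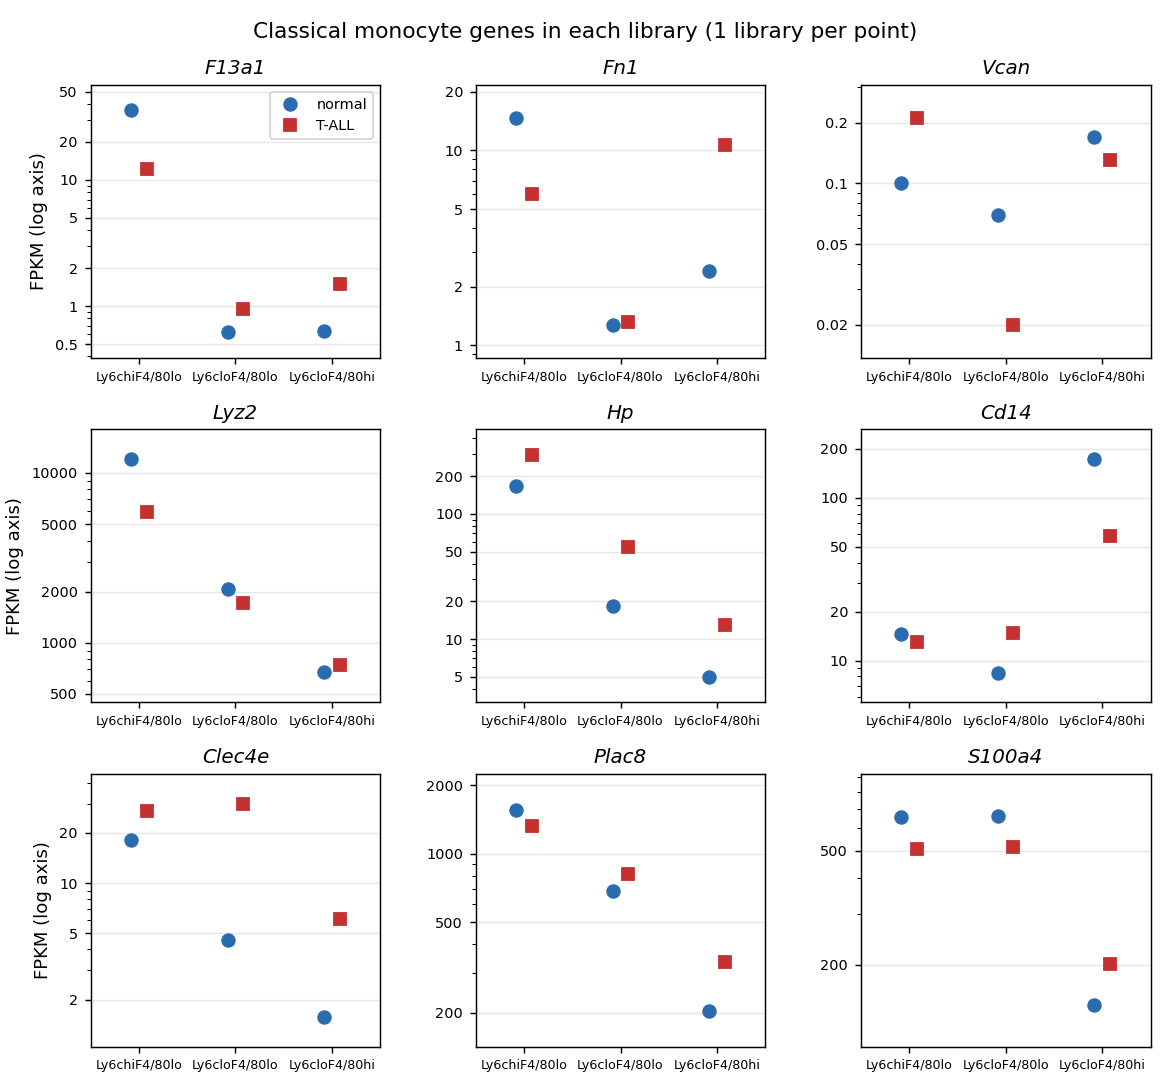
FPKM of each of the 9 genes (log axis, 1 panel per gene) in the 3 gates, normal libraries as blue circles and T-ALL libraries as red squares, 1 library per point. F13a1, Lyz2, Hp and Plac8 are highest in both Ly6chiF4/80lo libraries, Cd14 is highest in both Ly6cloF4/80hi libraries, and Vcan stays at or below 0.21 FPKM.

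**Figure D2:**
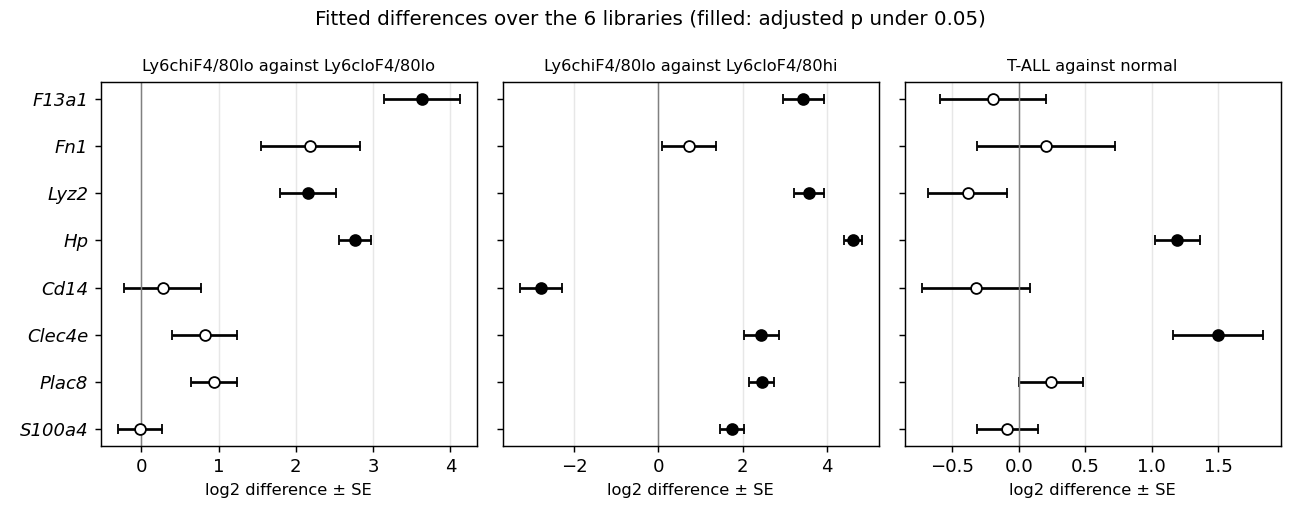
Fitted log2 difference ± SE on the log2(FPKM + 1) scale for the 8 tested genes, from limma on all 6 libraries, with filled points for an adjusted p under 0.05. In the middle panel 6 filled points lie to the right of 0 and Cd14 to the left; in the right panel Hp (1.19) and Clec4e (1.5) are the filled points.

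F13a1 encodes the A subunit of coagulation factor XIII, the transglutaminase that cross-links fibrin. In normal spleen it stood at 35.6 FPKM in Ly6chiF4/80lo, 0.62 in Ly6cloF4/80lo and 0.64 in Ly6cloF4/80hi. In T-ALL it stood at 12.3, 0.95 and 1.51 FPKM in the same order. Both Ly6chiF4/80lo libraries were above the other 4, as was so for 4 of the 8 genes (F13a1, Lyz2, Hp and Plac8) and for 8.39% of all tested genes. The fitted difference of Ly6chiF4/80lo was 3.63 (SE 0.49, adjusted p = 0.0189) against Ly6cloF4/80lo and 3.44 (SE 0.49, adjusted p = 0.00993) against Ly6cloF4/80hi, on the log2(FPKM + 1) scale, which understates changes of genes this low. The Ly6clo gates were not separated by the test (adjusted p = 0.866). Without the normal or the T-ALL Ly6cloF4/80lo library the first call was lost (adjusted p = 0.231 and 0.0954), and without the normal Ly6cloF4/80hi library the other was (0.0853). T-ALL against normal gave -0.19 (SE 0.40, adjusted p = 0.754), and the gates differed in direction: the log2 change was -1.46 in Ly6chiF4/80lo, 0.27 in Ly6cloF4/80lo and 0.61 in Ly6cloF4/80hi.

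Fn1 encodes fibronectin, a matrix glycoprotein that binds integrins. Its normal levels were 14.7, 1.27 and 2.42 FPKM in Ly6chiF4/80lo, Ly6cloF4/80lo and Ly6cloF4/80hi. Its T-ALL levels were 5.95, 1.32 and 10.65 FPKM. The order of the gates thus differed between the states: Ly6chiF4/80lo was highest in normal spleen and Ly6cloF4/80hi in T-ALL, with Ly6cloF4/80lo lowest in both. The difference of Ly6chiF4/80lo was 2.19 against Ly6cloF4/80lo (SE 0.64, adjusted p = 0.107) and 0.73 against Ly6cloF4/80hi (SE 0.64, adjusted p = 0.496). The former passed without the normal or the T-ALL Ly6cloF4/80hi library (adjusted p = 0.0330 and 0.0268). In the Ly6cloF4/80hi gate the T-ALL library had 4.40 times the FPKM of the normal one, and the 95% counting interval of that log2 ratio ran from 1.87 to 2.41. In Ly6chiF4/80lo the T-ALL library had 0.404 times the normal level, with an interval of -1.5 to -1.12. These intervals cover counting error only, and no test of the states within a gate was possible with 1 library each.

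Vcan encodes versican, a large chondroitin sulfate proteoglycan of the matrix. It was listed at 0.10, 0.07 and 0.17 FPKM in the normal and at 0.21, 0.02 and 0.13 FPKM in the T-ALL libraries, in the order Ly6chiF4/80lo, Ly6cloF4/80lo, Ly6cloF4/80hi. At the recovered depth these values are 2 to 17 fragments if all came from its longest transcript of 12427 bases. No gate or state difference in Vcan was detectable at this depth. Its levels in the 2 Ly6chiF4/80lo libraries lay far below those of F13a1, Fn1 and the other classical monocyte genes in the same libraries.

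Of 13 tested genes of coagulation and fibrinolysis, F13a1 among them, 4 were higher and 1 lower in Ly6chiF4/80lo than in Ly6cloF4/80lo. Against Ly6cloF4/80hi, 6 were higher and 2 lower. In T-ALL 0 of the 13 passed in limma (1 higher and 2 lower at an unadjusted p under 0.05), with a median log2 difference of -0.10. F10, which encodes coagulation factor X, stood at 25.96, 7.10 and 5.05 FPKM in normal spleen and at 26.7, 15.1 and 7.17 FPKM in T-ALL. Plaur, the urokinase receptor, stood at 158, 68.1 and 41.7 FPKM in normal spleen and at 99.8, 57.99 and 32.6 FPKM in T-ALL. Like F13a1, both genes were highest in the Ly6chiF4/80lo gate of each state. Of 12 tested genes on the list of fibronectin and versican partners, which holds Fn1 itself, 2 rose in T-ALL and 1 fell. Itgb3, the β3 integrin chain, rose by a log2 of 1.00 (SE 0.15, adjusted p = 0.0185), and Hmmr, a hyaluronan-binding protein of the mitotic spindle, by 1.11 (SE 0.13, adjusted p = 0.0106). Sdc3, a syndecan, fell by 0.73 (SE 0.13, adjusted p = 0.0255). Itgb3 also stands on the list of megakaryocyte and platelet markers, of which 2 of 8 tested rose (8 at an unadjusted p under 0.05). The sum of the 10 markers of that list was 25.2, 19.8 and 20.5 FPKM in normal spleen and 38.7, 62.7 and 64.5 FPKM in T-ALL. Of 15 tested cell cycle genes 14 rose in T-ALL. The part of platelets and of dividing cells in these values was not tested.

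Lyz2 encodes lysozyme, which splits the peptidoglycan of bacterial walls. Its levels were 12009.85, 2075 and 670.4 FPKM in the normal libraries of Ly6chiF4/80lo, Ly6cloF4/80lo and Ly6cloF4/80hi. In T-ALL they were 5901, 1707 and 744 FPKM. The gates kept 1 order in both states and did not overlap. In the normal Ly6chiF4/80lo library Lyz2 ranked 2 among all genes and made up 2.34% of the summed FPKM, and in the T-ALL library of that gate it ranked 8 and made up 1.01%. Ly6chiF4/80lo was above Ly6cloF4/80hi by 3.57 (SE 0.36, adjusted p = 0.00335), a call that held under all 13 alternative settings. Against Ly6cloF4/80lo the difference was 2.16 (SE 0.36, adjusted p = 0.0318), and that call was lost in 7 of the 13. Among these were the removal of the normal or T-ALL Ly6chiF4/80lo library (adjusted p = 0.141 and 0.0927) and of the normal or T-ALL Ly6cloF4/80lo library (0.137 and 0.0611). T-ALL against normal gave -0.39 (SE 0.30, adjusted p = 0.390).

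Lyz1, the copy of Lyz2 that is typical of the intestine, was listed at 446, 85.9 and 31.4 FPKM in normal spleen and at 203, 61.9 and 31.1 FPKM in T-ALL. The ratio of Lyz2 to Lyz1 stayed between 21.4 and 29.0 in the 6 libraries. Because the coding sequences are so alike, fragments of one gene may have been counted for the other, and the Lyz1 values are uncertain. Of 11 tested lysozyme and antibacterial genes, Lyz2 among them, 9 were higher in Ly6chiF4/80lo than in Ly6cloF4/80lo and 9 than in Ly6cloF4/80hi. They include Ngp (2436 FPKM in normal and 6045 in T-ALL Ly6chiF4/80lo, 12.5 to 51.1 elsewhere) and Ltf, lactoferrin (672 and 1486, then 3.36 to 12.2), which neutrophils store in granules. In the Ly6chiF4/80lo gate Lyz2 was lower in the T-ALL than in the normal library, while Ngp and Ltf were higher. In T-ALL 0 of the 11 genes passed in limma, and 2 were higher at an unadjusted p under 0.05.

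Hp encodes haptoglobin, a secreted protein that captures free hemoglobin. Its normal levels were 167, 18.4 and 4.98 FPKM in Ly6chiF4/80lo, Ly6cloF4/80lo and Ly6cloF4/80hi. Its T-ALL levels were 296, 54.8 and 13.05 FPKM. Within every gate the T-ALL library was the higher one, and the gates did not overlap. Hp rose in T-ALL by 1.19 on the log2(FPKM + 1) scale (SE 0.17, adjusted p = 0.0155), a 2.29-fold difference. The log2 change was 0.82, 1.53 and 1.23 in the 3 gates. Only 2 of the 8 genes, Hp and Clec4e, were higher in T-ALL in all 3 gates, where 27.9% of all tested genes were, a share near that of the 8. The size of the rise was 1.17 without either Ly6cloF4/80hi library, but the call was lost (adjusted p = 0.0648 without the normal and 0.0602 without the T-ALL library), as it was with no block (0.713). Hp was also higher in Ly6chiF4/80lo than in Ly6cloF4/80lo by 2.77 (SE 0.21, adjusted p = 0.00673) and than in Ly6cloF4/80hi by 4.61 (SE 0.21, adjusted p = 4.164e-04). It was lower in Ly6cloF4/80hi than in Ly6cloF4/80lo by a log2 of -1.84 (SE 0.21, adjusted p = 0.00911), a call lost without the normal Ly6cloF4/80hi library (0.0671).

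Neutrophils and their progenitors transcribe Hp, and their markers moved as follows. The 15 neutrophil markers summed to 13600, 435 and 381 FPKM in normal spleen and to 45500, 138 and 229 FPKM in T-ALL. The sum was thus higher in T-ALL in Ly6chiF4/80lo and lower in both Ly6clo gates, while Hp was higher in each gate. S100a8 alone made up 21584 of the 45500 FPKM, and in no gate did all 15 move with the sum. In limma 0 of the 15 passed for T-ALL (0 higher and 1 lower at an unadjusted p under 0.05). Stfa2l1, one of the 15, was absent from the T-ALL files of both Ly6clo gates and was set to 0 there. The 9 markers of granulocyte and monocyte progenitors summed to 286, 165 and 59.9 FPKM in normal spleen and to 1770, 394 and 112 FPKM in T-ALL, higher in every gate. Of these 9 markers, 7 rose in T-ALL and 1 fell. Mpo, the granule peroxidase of such progenitors, stood at 101, 11.96 and 5.22 FPKM in normal spleen and at 745, 149 and 32.6 FPKM in T-ALL. The part of neutrophils and of progenitor cells in the Hp values was not tested.

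Of 11 tested genes of haptoglobin, hemoglobin and heme clearance, 2 rose in T-ALL (Hp and Tfrc) and 4 fell. Cd163, the macrophage receptor that takes up haptoglobin bound to hemoglobin, stood at 7.36, 5.43 and 117 FPKM in normal spleen and at 2.08, 2.25 and 27.1 FPKM in T-ALL. Its level was lower in T-ALL in each gate, and it fell by 1.498 (SE 0.23, adjusted p = 0.0168). Slc40a1, the iron exporter ferroportin, fell by 1.52 (SE 0.21, adjusted p = 0.0138) and Trf, transferrin, by 1.84 (SE 0.17, adjusted p = 0.00832). Tfrc, the transferrin receptor, rose by 1.56 (SE 0.36, adjusted p = 0.0451). Hp and Cd163 thus moved in opposite directions in T-ALL, and Hp was highest in Ly6chiF4/80lo of each state and Cd163 in Ly6cloF4/80hi. Cd163, Slc40a1 and the heme oxygenase gene Hmox1, which are 3 of the 4 genes that fell, also stand on a list of 16 red pulp macrophage markers, of which 14 fell in T-ALL. The sum of those 16 was 790, 1030 and 18300 FPKM in normal spleen and 423, 427 and 7570 FPKM in T-ALL, lower in each gate. Erythroid markers were higher in T-ALL in each gate: the sum of 12 was 40.8, 166 and 235 FPKM in normal spleen and 78.9, 1340 and 2420 FPKM in T-ALL, and the list holds Tfrc. The part of either cell type in the result was not tested.

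Cd14 encodes the co-receptor that hands bacterial lipopolysaccharide to the TLR4 complex. It stood at 14.6, 8.38 and 174 FPKM in normal Ly6chiF4/80lo, Ly6cloF4/80lo and Ly6cloF4/80hi. It stood at 12.96, 14.9 and 58.2 FPKM in T-ALL. Both Ly6cloF4/80hi libraries were above the other 4, a pattern that Cd14 alone of the 8 genes had and that 9.27% of all tested genes had. Cd14 was thus not highest in the gate in which F13a1, Lyz2, Hp and Plac8 were. Ly6chiF4/80lo was below Ly6cloF4/80hi by a log2 of -2.79 (SE 0.50, adjusted p = 0.0219), and Ly6cloF4/80hi was above Ly6cloF4/80lo by 3.06 (SE 0.50, adjusted p = 0.0344). The first call was lost without the normal or the T-ALL Ly6chiF4/80lo library (adjusted p = 0.0809 and 0.0705). The other was lost without the normal Ly6cloF4/80lo library (0.184) or the normal Ly6cloF4/80hi library (0.0768). Ly6chiF4/80lo and Ly6cloF4/80lo were not separated (0.28, SE 0.50, adjusted p = 0.748), and neither were the states (-0.32, SE 0.41, adjusted p = 0.605). Within Ly6cloF4/80hi the T-ALL library had 0.335 times the normal level, and within Ly6cloF4/80lo 1.77 times.

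Of the partners of Cd14, Tlr4 and Ly96 were ordered by gate in a like way, and Lbp was not. Tlr4 stood at 5.09, 3.86 and 35.8 FPKM in normal spleen and at 3.53, 3.80 and 13.03 FPKM in T-ALL, and Ly96, which encodes the MD-2 subunit that binds lipopolysaccharide, at 31.7, 21.9 and 76.2 and at 31.9, 18.5 and 39.5 FPKM. Tlr4 was lower in Ly6chiF4/80lo than in Ly6cloF4/80hi by a log2 of -2.11 (adjusted p = 0.0133, 0.0627 without the normal Ly6chiF4/80lo library). All 3 genes of the receptor complex, Cd14, Tlr4 and Ly96, were highest in the Ly6cloF4/80hi gate of each state. Ly96 did not pass between Ly6chiF4/80lo and Ly6cloF4/80hi (limma, adjusted p = 0.0988). Lbp, whose protein binds lipopolysaccharide, stood at 4, 0.42 and 0.66 FPKM in normal spleen and at 12.19, 1.33 and 0.69 FPKM in T-ALL. It was higher in Ly6chiF4/80lo than in Ly6cloF4/80lo (2.16, adjusted p = 0.0290) and than in Ly6cloF4/80hi (2.28, adjusted p = 0.0125). Of 17 tested genes of this receptor and the Toll adaptors, Cd14 among them, 0 rose and 1 fell in T-ALL (2 and 5 at an unadjusted p under 0.05). That gene was Tlr2, a receptor for bacterial lipopeptides, which fell by 0.71 (SE 0.17, adjusted p = 0.0457). The red pulp macrophage sum given above was, like Cd14, highest in Ly6cloF4/80hi of each state and lower there in T-ALL. In Ly6cloF4/80lo the sum was lower in T-ALL while Cd14 was higher. All 16 markers, among them the sort antigen gene Adgre1, were higher in Ly6cloF4/80hi than in either other gate. Their part in the Cd14 values was not tested.

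Clec4e encodes Mincle, a C-type lectin receptor that binds mycobacterial cord factor and a nuclear protein freed by dead cells. Its normal levels were 18.1, 4.59 and 1.57 FPKM in Ly6chiF4/80lo, Ly6cloF4/80lo and Ly6cloF4/80hi. Its T-ALL levels were 27.2, 30.01 and 6.11 FPKM. The T-ALL library was higher in every gate, most so in Ly6cloF4/80lo, where it had 6.54 times the normal level. That gate thus stood well below Ly6chiF4/80lo in normal spleen and at about its level in T-ALL. Clec4e rose in T-ALL by 1.5 (SE 0.34, adjusted p = 0.0429), a 2.83-fold difference. The call was lost without the normal or the T-ALL Ly6cloF4/80lo library (log2 1.01, adjusted p = 0.0731 and 0.0739) and without the normal or the T-ALL Ly6cloF4/80hi library (log2 1.52, adjusted p = 0.213 and 0.137). It was also lost with no filter (0.0922), quantile normalization (0.0509), a plain prior (0.0544) and no block (0.418), which makes 8 of 13 alternatives. Across gates Clec4e was higher in Ly6chiF4/80lo than in Ly6cloF4/80hi by 2.44 (SE 0.42, adjusted p = 0.0176). That call was lost without the normal Ly6chiF4/80lo library (0.0505) and without the normal or T-ALL Ly6cloF4/80hi library (0.158 and 0.0681). Ly6chiF4/80lo and Ly6cloF4/80lo were not separated (0.82, SE 0.42, adjusted p = 0.260).

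Of 14 tested C-type lectin and Card9 signalling genes, 2 rose and 2 fell in T-ALL. Besides Clec4e, Clec4d rose, which encodes the lectin MCL that pairs with Mincle. It stood at 3.47, 1.35 and 1.60 FPKM in normal spleen and at 6.72, 7.81 and 3.95 FPKM in T-ALL, a log2 rise of 1.21 (SE 0.26, adjusted p = 0.0370). As for Clec4e, its T-ALL library was higher in each gate and the Ly6cloF4/80lo gate was the highest of the T-ALL libraries. The β-glucan receptor gene Clec7a fell by 0.89 (SE 0.16, adjusted p = 0.0261) and the inhibitory receptor gene Clec12a by 0.66 (SE 0.16, adjusted p = 0.0461). The sum of 9 basophil and mast cell markers was likewise highest in the T-ALL Ly6cloF4/80lo library. It was 24.7, 39.6 and 18.9 FPKM in normal spleen and 63.6, 326 and 128 FPKM in T-ALL. Prss34 alone made up 163 of the 326 FPKM, and not every marker followed the sum. In Ly6chiF4/80lo 1 of the 8 tested markers was higher and 3 were lower than in Ly6cloF4/80lo. Of the 8 tested markers of that list 3 rose in T-ALL, and their part in the Clec4e values was not tested.

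**Figure D3:**
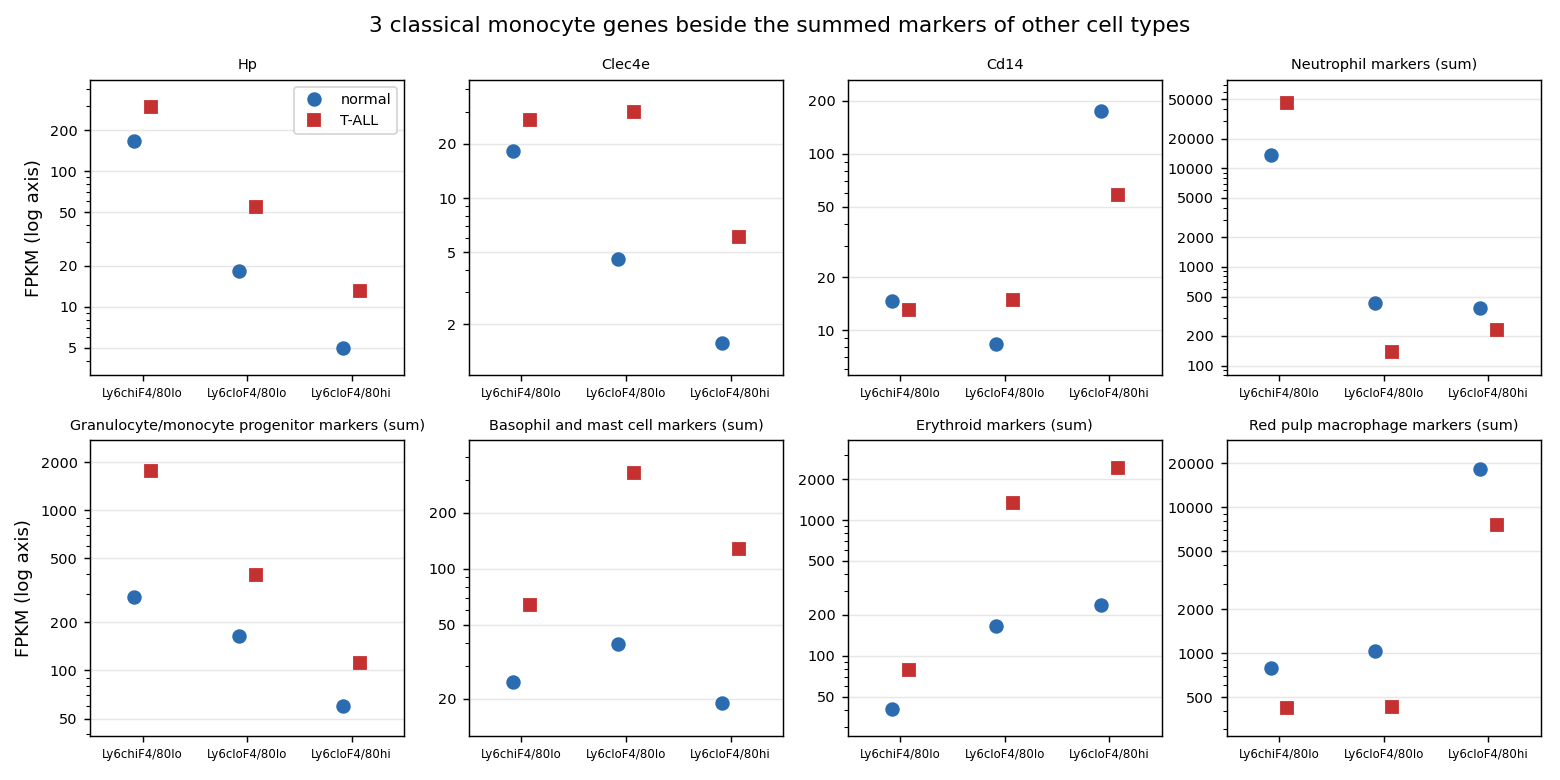
FPKM (log axis) of Hp, Clec4e and Cd14 and, in the other panels, the summed FPKM of marker lists of 5 other cell types, in the 3 gates, with normal libraries as blue circles and T-ALL libraries as red squares. Hp is higher in T-ALL in every gate, while the neutrophil sum is higher in Ly6chiF4/80lo and lower in both Ly6clo gates; Cd14 and the red pulp macrophage sum are both highest in Ly6cloF4/80hi.

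Plac8 encodes a small cysteine-rich protein of leukocytes. It stood at 1562, 686 and 204 FPKM in normal Ly6chiF4/80lo, Ly6cloF4/80lo and Ly6cloF4/80hi. It stood at 1328, 815 and 336 FPKM in T-ALL. The gates kept this order in both states without overlap. Ly6chiF4/80lo was above Ly6cloF4/80hi by 2.45 (SE 0.30, adjusted p = 0.00558), which held under all 13 alternatives, and above Ly6cloF4/80lo by 0.95 (SE 0.30, adjusted p = 0.121). The T-ALL difference was 0.24 (SE 0.24, adjusted p = 0.506). Plac8 was abundant in every library, at rank 30 to 338.

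S100a4 encodes a calcium-binding protein that interacts with non-muscle myosin. Its normal levels were 653, 659 and 145 FPKM in Ly6chiF4/80lo, Ly6cloF4/80lo and Ly6cloF4/80hi. Its T-ALL levels were 507, 515 and 201 FPKM. The Ly6chiF4/80lo and Ly6cloF4/80lo libraries of each state were close, with a fitted difference of -0.02 (SE 0.28, adjusted p = 0.971), whose sign turned under median-ratio scaling (0.19) and quantile normalization (0.07). Both Ly6cloF4/80hi libraries were below the other 4, as they were for Lyz2, Hp and Plac8 and for 9.87% of all tested genes. S100a4 was higher in Ly6chiF4/80lo than in Ly6cloF4/80hi by 1.75 (SE 0.28, adjusted p = 0.0147), a call lost without the normal or T-ALL Ly6chiF4/80lo library (0.0826 and 0.0501) or the normal Ly6cloF4/80hi library (0.0986). It was lower in Ly6cloF4/80hi than in Ly6cloF4/80lo by a log2 of -1.76 (SE 0.28, adjusted p = 0.0303), lost without the normal Ly6cloF4/80lo or Ly6cloF4/80hi library (0.127 and 0.236). The T-ALL difference was -0.09 (SE 0.23, adjusted p = 0.815).

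Of 9 tested S100 genes, S100a4 among them, 2 were higher in Ly6chiF4/80lo than in Ly6cloF4/80lo and 5 than in Ly6cloF4/80hi. In T-ALL 0 passed in limma, also at an unadjusted p under 0.05 (0 of 9). S100a8, a calprotectin subunit of neutrophils and monocytes, stood at 5836, 166 and 144 FPKM in normal spleen and at 21584, 43.5 and 92.7 FPKM in T-ALL. In the Ly6chiF4/80lo gate S100a8 was higher and S100a4 lower in the T-ALL library than in the normal one. In the Ly6cloF4/80lo gate both were lower in T-ALL.

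Within a gate each state has 1 library, so changes are given as values. In Ly6chiF4/80lo 0 of the 8 genes were past 2-fold higher and 3 were past 2-fold lower in T-ALL (F13a1, Fn1 and Lyz2), where 6.19% of all tested genes were past 2-fold higher and 3.86% lower. In Ly6cloF4/80lo 2 were higher (Hp and Clec4e) and 0 lower, where 5.43% and 1.55% of all genes were (6.98% in either direction). In Ly6cloF4/80hi 3 were higher (Fn1, Hp and Clec4e) and 1 was lower (Cd14), where 9.58% and 5.51% of all genes were. Lyz2 lay just past the 2-fold limit in Ly6chiF4/80lo (log2 -1.03), and Hp just inside it in that gate (0.82). The median change of the 8 genes was -0.30, 0.26 and 0.67 in the 3 gates, and that of all tested genes -0.07, 0 and 0.02. In the Ly6chiF4/80lo gate the genes thus did not move together: Hp and Clec4e were higher in T-ALL, and the other 6 were lower, Cd14 by less than its counting interval (-0.51 to 0.15). In Ly6cloF4/80hi 7 of the 8 were higher and Cd14 was lower, although the small change of Lyz2 there (0.15) turned to -0.40 under quantile normalization.

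**Figure D4:**
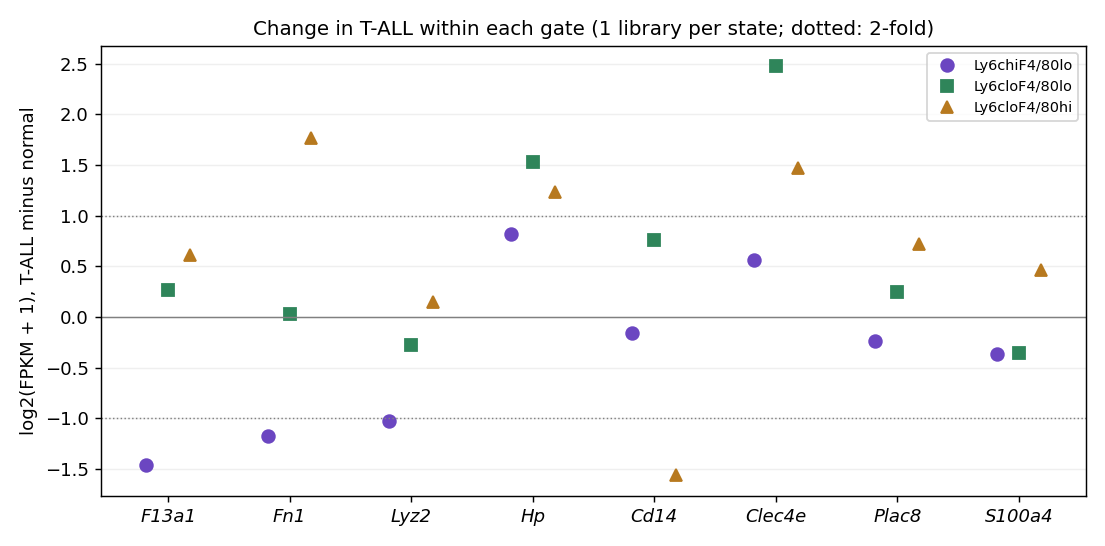
Difference of log2(FPKM + 1), T-ALL minus normal, for the 8 tested genes within Ly6chiF4/80lo (circles), Ly6cloF4/80lo (squares) and Ly6cloF4/80hi (triangles), 1 library per state; dotted lines mark 2-fold. F13a1, Fn1 and, barely, Lyz2 lie below the lower line in Ly6chiF4/80lo, and Fn1 lies above the upper line in Ly6cloF4/80hi; Clec4e in Ly6cloF4/80lo (2.47) is the highest point.

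The gate accounted for 59.0% (Clec4e) to 95.7% (Lyz2) of the squared deviations of a gene over the 6 libraries. The state accounted for 0.3% (F13a1 and S100a4) to 32.2% (Clec4e), and for 9.0% of Hp. The remainder was largest for Fn1 (30.4%), followed by Cd14 (10.5%), and smallest for Hp (0.5%). Clec4e and Hp had the largest shares for the state, and Fn1 the largest that followed neither term.

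The likeness of patterns was measured as the root mean square difference of log2(FPKM + 1) after centring each gene on its mean over the 6 libraries. These distances describe 6 libraries only. Plac8 and S100a4 were the closest pair of the 8 genes (0.45), followed by Lyz2 and Plac8 (0.64) and by Clec4e and Plac8 (0.72). Hp and Cd14 were furthest apart (3.20). Outside the 8 genes, the closest to Lyz2 were Lyz1 (0.162), Ptgir (0.217), the prostacyclin receptor, and Serpinb10 (0.266). Closest to Plac8 were Itgal (0.160), an integrin chain, Eno3 (0.188), a muscle enolase, and Slc2a6 (0.190), and the former pair stand on the list of patrolling monocyte markers. Closest to S100a4 were Card9 (0.167), the adaptor of C-type lectin receptors, Ramp1 (0.170) and Sema4d (0.195). For Cd14 they were Gdpd1 (0.225), Rab20 (0.332) and Ctsd (0.334), the lysosomal protease cathepsin D. Prg2 (0.319), the major basic protein of eosinophils, Gk (0.382) and Smpdl3b (0.4) were closest to Clec4e. The other genes had no pattern as close: Hp had Ly6i (0.497), Anxa1 (0.598) and Pi16 (0.599), Fn1 had Wfdc17 (0.491), Lilrb4a (0.544) and Cd8b1 (0.550), and F13a1 had Siglech (0.509), Slfn1 (0.550) and Cd209d (0.606).

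Other genes known from classical monocytes were compared in the same way, as a list of 20 that were all tested. In Ly6chiF4/80lo 9 of them were higher than in Ly6cloF4/80lo and 15 than in Ly6cloF4/80hi. In either comparison 0 were lower, also at an unadjusted p under 0.05. Both counts of higher genes include Ly6c2, which encodes a sort antigen, so that its call follows from the gating. With T-ALL 0 rose and 1 fell in limma (4 and 2 at an unadjusted p under 0.05), at a median log2 difference of -0.12. The gene that fell was Ccr2, the receptor for the monocyte attractant CCL2. It stood at 167, 21.3 and 7.88 FPKM in normal spleen and at 37.4, 10.03 and 4.73 FPKM in T-ALL, a fall by 1.26 (SE 0.29, adjusted p = 0.0421) that did not pass when any 1 library was left out (0.0561 to 0.107). In the Ly6chiF4/80lo gate, Ccr2, F13a1, Fn1 and Lyz2 were lower in the T-ALL library, while Ly6c2, Hp and Clec4e were higher.

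Of 22 tested myeloid transcription factor genes 1 rose in T-ALL and 3 fell. Myb, a factor of progenitors that also stands on the progenitor list, rose by 1.48 (SE 0.16, adjusted p = 0.00925). Nr4a1, on which patrolling monocytes depend, fell by a log2 of 1.16 (adjusted p = 0.0158). The 12 patrolling monocyte markers summed to 2280, 1000 and 996 FPKM in normal spleen and to 1350, 1170 and 618 FPKM in T-ALL. That sum was highest in the Ly6chiF4/80lo gate of each state, the gate in which F13a1, Lyz2, Hp and Plac8 were highest too, and 8 of the 12 markers were higher and 0 lower there than in Ly6cloF4/80hi, at a median log2 difference of 1.67. Between Ly6chiF4/80lo and Ly6cloF4/80lo 0 of the 12 were called different in limma (3 higher at an unadjusted p under 0.05). The part of patrolling monocytes in the levels of the 8 genes was not tested.

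The T-ALL calls of the related genes named above differed in how far they held with 1 library left out. Because gate is a block, leaving out either library of a gate takes that whole gate out of the T-ALL difference. The runs for the 2 libraries of a gate are thus not separate checks, and a lost call does not show dependence on a single library. With any 1 library left out, the calls of Mpo, Trf, Myb, Slc40a1 and Hmmr stood (highest adjusted p 0.0126, 0.0230, 0.0315, 0.0351 and 0.0429). That of Cd163, the receptor of the haptoglobin complex, was lost without the normal Ly6cloF4/80hi library (0.0529). Nr4a1 was lost without 2 of the 6 libraries, Itgb3 without 3, Clec7a and Tfrc without 4 and Tlr2 without 5. Clec4d, the partner of Clec4e, was lost without any 1 library (0.0514 to 0.104), as were Clec12a (0.0686 to 0.176) and Sdc3 (0.0620 to 0.0882).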

How the data were processed

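RNA of the 6 sorted fractions was isolated on QIAGEN RNeasy columns and read with Illumina HiSeq chemistry, per the labels. The authors deposited FPKM per Entrez gene, made with Bowtie2 2.2.5 and RSEM per the submitters' processing notes. Genome build, annotation and RSEM version were not given in the sources used here. Values have 2 decimals (lowest 0.01), and genes absent from a file were set to 0 there. Symbols for 16017 of 16058 identifiers (99.7%) came from a RefSeq table of GRCm38.p6, used for names and for promoter windows. Depth was estimated from the spacing of low FPKM values in 217 to 259 genes per library. Transcript lengths came from GENCODE.

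Values were fitted as log2(FPKM + 1) with limma 3.58.1 in R 4.3.3 (statmod 1.5.0) on gate and state over the whole set of 6 libraries (trended, robust prior) for genes of at least 1 FPKM in at least 2 libraries. This leaves 2 residual degrees of freedom (median total 6.23). Two-sided p-values were adjusted by the Benjamini-Hochberg method over 11616 genes, with 0.05 as the threshold. An SE is that of the moderated fit. The fit and the depth estimate were tested on simulated data. Counting intervals are 95% and cover counting error only. Other steps used Python 3.11.15, numpy 2.4.6, pandas 2.3.3, scipy 1.17.1, biopython 1.88 and matplotlib 3.10.9.

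The alternatives were a pseudocount of 0.1, no filter, a filter on a mean of 5 FPKM, median-ratio scaling, quantile normalization, a plain prior, no block, each library left out and a 1.5-fold limit within gates. Named genes were the 9 genes in every comparison, the 3 genes nearest in pattern to each (at least 10 FPKM in 1 library), up to 4 genes per pathway list with the largest T-ALL change (at least 5 FPKM), the 2 highest genes per cell type list, and known partners or sort antigens. A gene that this rule picks was left out of the text. The genes and lists were chosen with earlier results of these data known.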

Additional observations from a re-analysis of the deposited data

Results flagged for a closer look

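For 6 of the 8 tested genes the change with T-ALL had opposite directions in different gates, each by more than the counting interval. The share of all tested genes with this pattern was not computed, so the count has no background to be read against. Of all tested genes, 27.9% were higher and 30.0% lower in T-ALL in all 3 gates, so mixed directions were not rare. The interval covers counting error only and is narrow for abundant genes (-0.28 to -0.19 for Plac8 in Ly6chiF4/80lo). The highest minus the lowest log2 change among the gates was 2.95 for Fn1 (higher in T-ALL in Ly6cloF4/80hi, lower in Ly6chiF4/80lo), 2.32 for Cd14 (higher in Ly6cloF4/80lo, lower in Ly6cloF4/80hi) and 2.08 for F13a1 (higher in Ly6cloF4/80hi, lower in Ly6chiF4/80lo). It was 1.17 for Lyz2, 0.95 for Plac8 and 0.83 for S100a4, each higher in Ly6cloF4/80hi and lower in Ly6chiF4/80lo. With 1 library per gate and state the difference between the gates was not tested. The opposite directions of Lyz2 were not kept under quantile normalization, where its change in Ly6cloF4/80hi was -0.40.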

How the results depend on the processing

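Of 416 values of the 8 genes in tested comparisons under the alternatives, 342 kept direction and side of the threshold, 47 lost a call, 7 gained one and 20 changed direction, and the causes were not tested. The counts of genes called for T-ALL, Ly6chiF4/80lo against Ly6cloF4/80lo, Ly6chiF4/80lo against Ly6cloF4/80hi and Ly6cloF4/80hi against Ly6cloF4/80lo were 1410, 549, 1485 and 414. They were 370, 156, 867 and 173 with no filter, under which more genes share the adjustment, and 161, 0, 197 and 0 with no block. The zeros without the block stand beside 1335 and 1179 genes at an unadjusted p under 0.05 in limma. For the 8 genes the counts were 2, 3, 7 and 3. With no block they were 0, 0, 4 and 0 (0, 4, 7 and 5 unadjusted, where 2024, 1335, 1877 and 1179 of all genes passed). With no filter the T-ALL count was 1 and both comparisons with Ly6cloF4/80lo gave 1. Quantile normalization and the plain prior gave 1 for T-ALL. At a 1.5-fold limit within gates the number higher was 1 in Ly6chiF4/80lo, 3 in Ly6cloF4/80lo and 5 in Ly6cloF4/80hi. The number lower was 3, 0 and 1 in the same order. The share of all genes past 1.5-fold was not computed, so these counts have no background to be read against.

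With each library left out in turn, genes called ranged from 283 to 923 for T-ALL, 81 to 718 and 617 to 1277 for Ly6chiF4/80lo against Ly6cloF4/80lo and Ly6cloF4/80hi, and 127 to 668 between the Ly6clo gates. The 8 genes gave 0 to 2, 1 to 4, 4 to 7 and 0 to 4 calls. The lowest counts for T-ALL came without the normal Ly6cloF4/80hi library (283 genes, 0 of the 8), for Ly6chiF4/80lo against Ly6cloF4/80lo without the normal Ly6cloF4/80lo library (81 genes), and between the Ly6clo gates without that library too (127 genes). Uncalled differences changed sign in these runs. T-ALL ranged from -0.60 to 0.44 for F13a1, -0.36 to 0.053 for S100a4, -0.57 to 0.90 for Fn1 and -0.86 to 0.30 for Cd14. Ly6chiF4/80lo against Ly6cloF4/80lo ranged from -0.53 to 1.09 for Cd14 and -0.23 to 0.19 for S100a4, against Ly6cloF4/80hi from -0.44 to 1.90 for Fn1, and Ly6cloF4/80hi against Ly6cloF4/80lo from -0.42 to 0.80 for F13a1. F13a1 in T-ALL was 0.046 with a pseudocount of 0.1. S100a4 in Ly6chiF4/80lo against Ly6cloF4/80lo was 0.19 under median-ratio scaling, which moved the median of all genes from -0.19 to -0.01, and 0.073 under quantile normalization (-0.04).

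Of the other genes named, 31 were called for T-ALL, and 5 of these kept the call in every alternative, Hmmr and 4 cell cycle genes. None of the 31 changed direction. The labels give no replicate numbers to pair libraries by. The T-ALL comparison was matched by gate, as a block, and the fit without that block is the one given above. A gene of about 1 FPKM rests on few fragments, so F13a1 in the Ly6clo gates (19 to 50 fragments) and Vcan set no firm order.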
